A study of Mus musculus with 12 samples.

Results

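The hearts of both ILK transgenic lines, pooled with equal weight for each line, were compared with the hearts of all wild type (WT) mice, and differences that ran the same way in both lines were sought. The comparison used every array of the series, that is 6 transgenic and 6 WT hearts, 12 of 12 in all, chosen by the genotype in the labels. Of the transgenic mice, 3 had the genotype ILKR211A Tg (Tg R211A) and 3 had the genotype ILKS343D Tg (Tg S343D). All mice were of the C57BL/6 strain, aged 8 to 9 weeks and labelled female, apart from replicate 1 of the first WT set, which is labelled male. Both transgenes carry a mutated human ILK and are over-expressed in the heart. The promoter that drives them is not given in the sources used here, nor is the number of founder animals behind a line. The labels name no treatment or operation, whereas the methods describe hearts with and without infarction for these arrays, so whether any heart was infarcted was not settled. The WT mice carry 2 runs of replicate numbers, here the first and the second set, and no label ties a set to a line. Hearts numbered 1 to 6 are those of Tg S343D and the first set, and hearts numbered 7 to 12 are those of Tg R211A and the second set.

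Integrin-linked kinase (ILK) sits at the inner face of integrin adhesions, where it binds PINCH and parvin proteins and joins the adhesion to actin. In heart muscle this complex lies at costameres, which connect the Z-discs of the outer sarcomeres to the cell membrane. Myotilin, encoded by Myot, is a Z-disc protein that binds alpha-actinin and filamin C and cross-links actin. The R211A mutation lies in the pleckstrin homology-like region of ILK, and S343D places an acidic residue at a phosphorylation site of its kinase-like domain.

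The values are MAS5 signals, a brightness summarised for each probe set of the array, and differences are given as log2, where 1 is a doubling. A probe set was called changed where the adjusted p of limma, after Benjamini-Hochberg correction over the 22519 probe sets tested, was under 0.05. The cardiomyocyte genes Myh6, Tnnt2, Tnni3, Actc1 and Myl2 had mean WT signals from 10460 to 13090, and all 10 cardiomyocyte markers were measured. Markers of atrial muscle varied widely among hearts in every group, with a summed signal from 2810 to 21998, and the labels name the left ventricle for only 1 heart. The mouse labelled male had an Xist signal of 718, inside the range of 703 to 864 of the WT mice, and Xist is transcribed from the inactive X chromosome of females.

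In the pooled comparison 3 of 22519 probe sets were called, 0.0133%, of which 2 were higher in transgenic hearts (0.00888%) and 1 was lower (0.00444%). The higher probe sets were those of Ilk and of Ggt5, and the lower one was that of Myot. Ilk and Myot also had an unadjusted p under 0.05 with the same sign in each line, so 2 probe sets (0.00888%) met the rule for a shared change. Before adjustment 1048 probe sets had a p under 0.05, 4.65% of those tested, of which 511 were higher (2.27%) and 537 lower (2.38%). The median size of the pooled log2 difference was 0.07, below its median standard error of 0.11. Most of the transcripts measured were therefore within the spread between mice when the lines were pooled.

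Ilk checks the labels. Its signal was 8223, 9553 and 8622 in the Tg R211A hearts and 3258, 3272 and 4016 in the Tg S343D hearts. The WT signals were 551 at the lowest, 598 at the median and 657 at the highest. Every transgenic heart thus stood far above every WT heart, all 6 being above all 6 WT hearts in 14 of the probe sets tested (0.0622%), and the lines did not overlap each other. The pooled log2 difference was 3.21 ± 0.06 (standard error, 6 against 6 mice, adjusted p = 3.07e-13). It was 3.87 in Tg R211A and 2.54 in Tg S343D, and the lines differed by 1.33 (adjusted p = 1.12e-05). In an exact permutation test over the 924 splits of 12 mice into 6 and 6, p was 0.00216 (two-sided), the smallest that test can give and the value of any probe set whose groups do not overlap. The single probe set is designed for mouse Ilk, and its response to the human transcript was not tested, so these signals do not rank the transgene's level against that of the mouse gene.

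Myot was the one gene called lower. Its signal was 205, 325 and 240.1 in the Tg R211A hearts and 362, 414 and 279 in the Tg S343D hearts. In WT hearts the lowest signal was 461, the median 509.9 and the highest 611. All 6 transgenic hearts lay below all 6 WT hearts, which held for 18 of all probe sets tested (0.0799%), whereas the lines overlapped each other. The pooled log2 difference was -0.84 ± 0.12 (standard error, 6 against 6 mice, adjusted p = 0.0351), which is 0.56 of the WT signal, with a 95% confidence interval from -1.09 to -0.58. Against the same 6 WT mice the difference was -1.07 in Tg R211A (adjusted p = 0.00325) and -0.60 in Tg S343D (unadjusted p = 0.00088, adjusted p = 0.995), so Myot was not called in Tg S343D on its own. The difference between the lines was -0.46 (unadjusted p = 0.0148, adjusted p = 0.462). The pooled call was close to its threshold. It was lost when any 1 of 10 of the 12 mice was left out, with differences between -0.93 and -0.76 over the 12 such fits and adjusted p from 0.00731 to 0.171. Without the mouse labelled male the difference was -0.79 (adjusted p = 0.116).

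Ggt5, a gamma-glutamyltransferase of the cell surface that acts on leukotriene C4 and glutathione, was called higher in the pooled comparison. Its probe set gave 783, 709 and 399 in the Tg R211A hearts and 196, 189 and 200.5 in the Tg S343D hearts. The WT hearts ran from 132 through a median of 161 to 182. All 6 transgenic hearts were above all 6 WT hearts, as in 0.0622% of probe sets. The Tg S343D hearts stood just above the WT range, however, and the Tg R211A hearts far above it. The pooled log2 difference was 1.13 ± 0.14 (standard error, 6 against 6 mice, adjusted p = 0.0102), made of 1.94 in Tg R211A and 0.31 in Tg S343D (unadjusted p = 0.0877). The lines differed by 1.63 (adjusted p = 0.0031). The gene's other tested probe set differed by -0.03 (unadjusted p = 0.795), with signals from 83.7 to 96.1 in Tg R211A and from 77.3 to 111 in WT hearts. The probe sets of Ggt5 therefore disagree, and the call belongs to 1 of them.

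**Figure D1:**
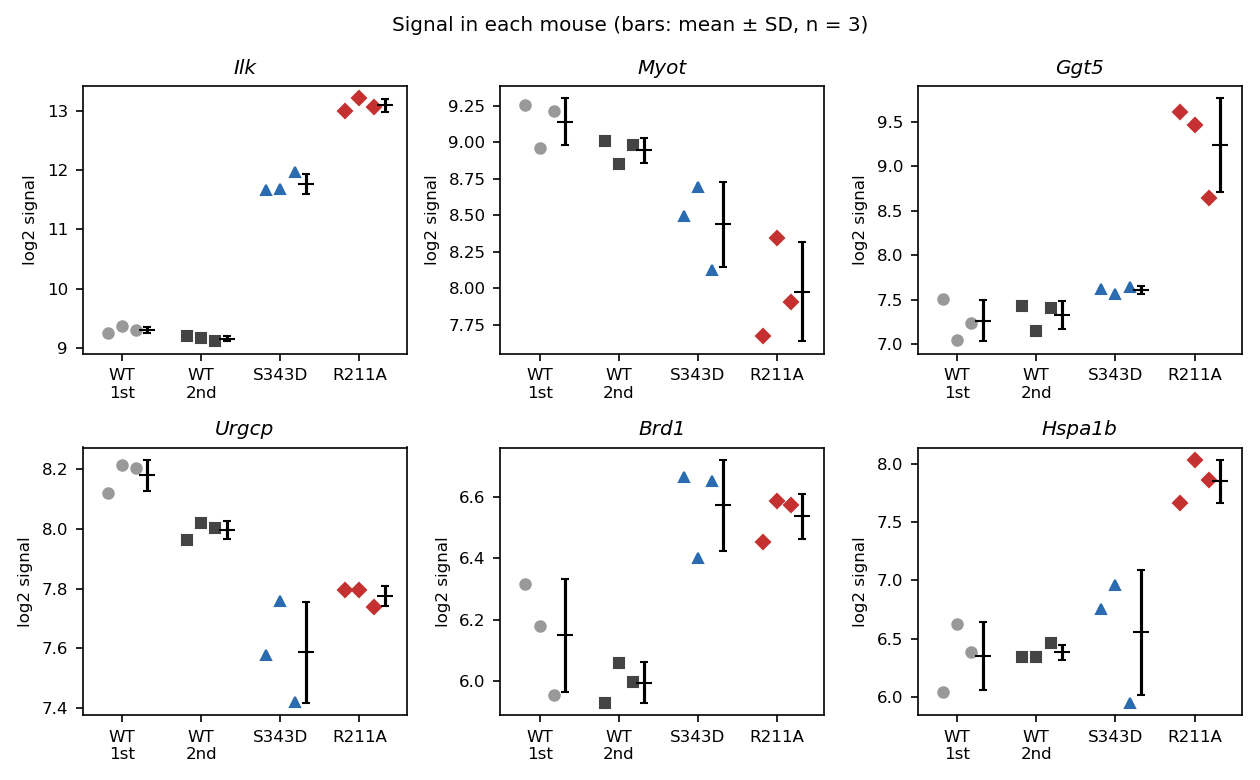
Log2 signal of 6 probe sets (Ilk, Myot, Ggt5, Urgcp, Brd1 and Hspa1b) in each of the 12 mice, with the mean ± SD of each group of 3 beside its points. Ilk is high in both lines, Myot and Urgcp are low in both, Brd1 is higher in both, and Ggt5 and Hspa1b stand apart from the WT hearts mainly in Tg R211A.

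The probe sets with the smallest pooled p were mostly set by 1 line. On its own, Tg R211A had 46 called probe sets against the 6 WT mice (0.204%) and Tg S343D had 1 (0.00444%), with 36 called between the lines (0.16%). Of the 20 with the smallest p, 18 had an unadjusted p under 0.05 between the lines, 18 had the larger difference in Tg R211A, and 4 had an unadjusted p under 0.05 in Tg S343D. Of the 1048 probe sets with an unadjusted pooled p under 0.05, 998 had the same sign in both lines, which averaging favours. Among the 1048, 554 had an unadjusted p under 0.05 in Tg R211A alone, 276 in Tg S343D alone, 85 in each line with the same sign, and 133 in neither. An unadjusted p under 0.05 in 1 line alone does not show that the lines differ. Compared directly, the lines differed at an unadjusted p under 0.05 in 264 of the 1048. The 1048 were 4.65% of the probe sets tested, no more than a threshold of 0.05 passes without any difference. The split is therefore given as a description.

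Below Ilk and Ggt5, the leading higher genes were not called and are given as values. They were the chaperones and co-chaperones Stip1, Hspa1b, Hspa1a, Hsp90aa1 and Unc45b, together with Uap1, an enzyme of UDP-N-acetylglucosamine synthesis, Sccpdh and Brd1. Hspa1b, an inducible HSP70, had signals of 202, 261 and 233 in Tg R211A and 108, 125 and 61.7 in Tg S343D hearts, against 65.8 to 98.7 with a median of 82.4 in WT hearts. The Tg R211A hearts were all above the WT range, while the Tg S343D hearts lay on both sides of it. Its pooled log2 difference was 0.84 ± 0.15 (adjusted p = 0.178), from 1.49 in Tg R211A and 0.19 in Tg S343D. Uap1 differed by 0.61 (1.04 and 0.18 in the lines, in the same order), Stip1 by 0.33 (0.56 and 0.09) and Unc45b, a myosin chaperone, by 0.28 (0.54 and 0.02). For Unc45b the pooled difference was almost wholly that of Tg R211A. Sccpdh differed by 0.33 (0.56 and 0.09). Uap1, Sccpdh and Tfb2m, a lower gene given below, all lie on chromosome 1 and had the larger difference in Tg R211A. Whether the shared chromosome bears on these differences was not tested.

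Heat shock factor 1 (HSF1) drives genes of this kind through pairs of inverted GAA units. Promoters of 2 chaperone genes and of Brd1, whose difference was of like size in both lines, are printed here to show what such units look like. Each runs from 250 bases before to 50 after the start, in RefSeq on GRCm38.p6, on the minus strand, at chr17:34959189-34959488 for Hspa1b, chr5:149636266-149636565 for Hsph1 and chr15:88734170-88734469 for Brd1. Capitals mark matches to GAANNTTC or TTCNNGAA, each of which reads the same on both strands, and overlapping matches are run together.
Hspa1b: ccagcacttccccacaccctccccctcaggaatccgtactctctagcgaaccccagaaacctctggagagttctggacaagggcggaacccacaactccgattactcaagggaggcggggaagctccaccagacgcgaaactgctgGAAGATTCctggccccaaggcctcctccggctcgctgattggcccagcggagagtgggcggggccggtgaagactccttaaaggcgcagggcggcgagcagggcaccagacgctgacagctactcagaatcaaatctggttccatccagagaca
Hsph1: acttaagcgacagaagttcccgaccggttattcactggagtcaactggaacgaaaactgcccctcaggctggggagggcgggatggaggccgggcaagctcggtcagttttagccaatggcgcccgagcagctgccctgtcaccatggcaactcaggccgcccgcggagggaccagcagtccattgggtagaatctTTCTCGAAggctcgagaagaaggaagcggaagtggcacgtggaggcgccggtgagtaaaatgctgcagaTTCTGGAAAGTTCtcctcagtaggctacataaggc
Brd1: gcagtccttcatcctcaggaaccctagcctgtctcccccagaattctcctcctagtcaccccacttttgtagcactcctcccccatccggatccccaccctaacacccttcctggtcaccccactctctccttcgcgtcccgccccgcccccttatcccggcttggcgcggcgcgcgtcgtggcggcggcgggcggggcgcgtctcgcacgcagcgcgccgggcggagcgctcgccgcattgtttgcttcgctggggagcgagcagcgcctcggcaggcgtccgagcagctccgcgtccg
GAANNTTC was found in 7.86% and TTCNNGAA in 8.52% of the 32851 promoters of this length. Hspa1b held 1 match, Hsph1 held 3 and Brd1 held none in the promoters printed. Hsph1 has 2 promoters of this length, and only the 1 with the lower coordinates is printed. At least 1 of the 2 patterns was found in 12 of the 21 measured genes of the HSF1 target core with a promoter in the table (57.1%) and in 17% of the 27025 genes with one. The list was chosen as HSF1 targets, so a higher share of such patterns follows from that choice and does not bear on these hearts. A match describes the letters and shows no binding.

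Of 26 genes of the HSF1 target core, 25 were measured. None was called in the pooled comparison, 13 had an unadjusted p under 0.05 and were all higher, and the median log2 difference was 0.19. Over the 11189 genes tested, 2.34% had such a p and were higher, 2.55% had one and were lower, and the median was -0.0011. The median was 0.43 in Tg R211A and -0.05 in Tg S343D against the same WT mice. Hsph1, an HSP110 that recharges HSP70, had signals of 948, 1246 and 1263 in Tg R211A and 381, 401 and 652 in Tg S343D, with 356 to 576 and a median of 495 in WT hearts. Again only the Tg R211A hearts cleared the WT range entirely. Its difference was 1.28 in Tg R211A and -0.02 in Tg S343D, and the lines differed (adjusted p = 0.0163). The pooled median of this group was thus an average of a difference in Tg R211A and one near 0 in Tg S343D.

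Genes with an unadjusted p under 0.05 and the same sign in each line were picked out after their values were seen, and apart from Ilk and Myot none was called. Brd1, which reads acetylated histones in a MOZ/MORF complex, had signals of 87.6, 95.9 and 95.1 in Tg R211A and 101, 84.5 and 100.4 in Tg S343D hearts, against 61.0 to 79.7 with a median of 65.3 in WT hearts. No transgenic heart overlapped a WT heart, as in 0.0622% of probe sets. Any probe set so separated, above or below, has an exact permutation p of 0.00216 (two-sided). That p is not corrected for the 22519 probe sets tested, so separation alone does not set Brd1 apart. The pooled log2 difference was 0.48 ± 0.10 (adjusted p = 0.417), with 0.46 in Tg R211A and 0.50 in Tg S343D, and the interval of the difference between the lines ran from -0.35 to 0.27. Tle6, a co-repressor of the Groucho family, gave 0.47 (0.45 and 0.50), and Klf11, a Kruppel-like transcription factor induced by TGF-beta, gave 0.50 (0.42 and 0.57). For Tle6 the groups did not overlap. For Klf11, 5 of 6 transgenic hearts were above every WT heart. Smaller differences of the same kind were 0.30 for Apoe, the lipid carrier apolipoprotein E, 0.25 for the chemokine Cxcl12 and 0.19 for Gdi2, which extracts Rab proteins from membranes.

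Among lower genes, Urgcp had signals of 222, 222 and 213 in Tg R211A and 191, 217 and 172 in Tg S343D hearts, against 250 to 297 with a median of 269 in WT hearts. The groups did not overlap, as in 0.0799% of probe sets. The pooled log2 difference was -0.41 ± 0.07 (adjusted p = 0.178), with -0.31 in Tg R211A and -0.50 in Tg S343D. Tfb2m, a mitochondrial transcription factor, also showed no overlap between transgenic and WT hearts, with 614, 776 and 672 in Tg R211A, 912, 931 and 903 in Tg S343D and 948 to 1161 in WT hearts. Its difference was -0.38 (adjusted p = 0.163), -0.59 in Tg R211A and -0.17 in Tg S343D (unadjusted p = 0.0579). Tfb2m thus had no unadjusted p under 0.05 in Tg S343D, and is named for its small pooled p. Spata9 (-0.69), Bdh1 (-0.51), an enzyme of ketone body metabolism, and the chloride transporter gene Clcn5 (-0.64) had lower signals in both lines, and Baz1b, a chromatin remodeller subunit, differed by -0.21 in each.

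**Figure D2:**
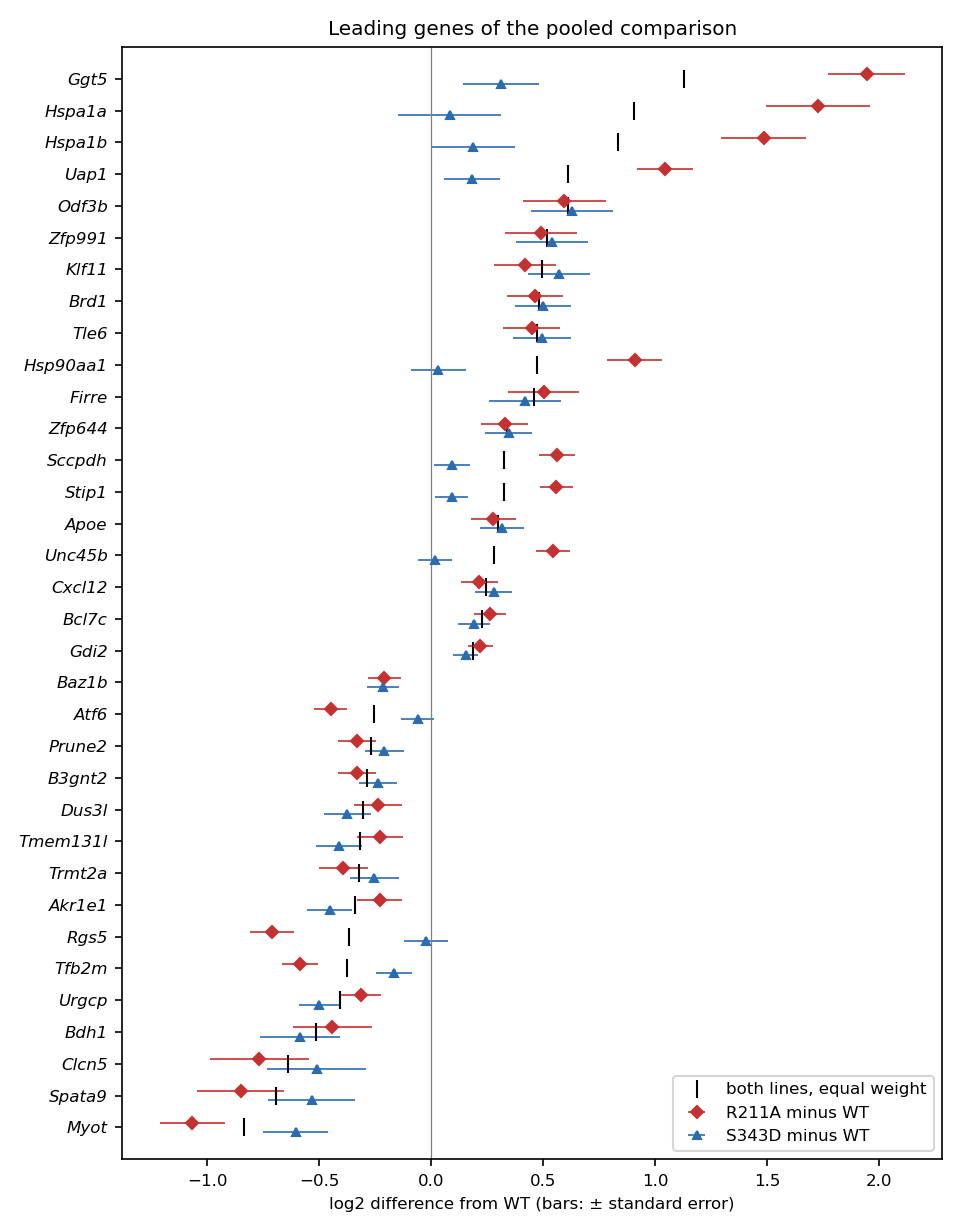
Log2 difference from the 6 WT mice in each line (points, with bars of ± 1 standard error) and for both lines at equal weight (vertical ticks) for the named genes with the smallest pooled p and those with an unadjusted p under 0.05 in each line. Ilk is left out because its difference of 3.21 is off the scale. Brd1, Tle6, Urgcp and Baz1b have like values in both lines, while those of the chaperone genes and Ggt5 are larger in Tg R211A.

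Both lines were set against the same 6 WT mice above, which makes their differences alike by construction. A comparison with no mouse in common set Tg R211A against the second WT set and Tg S343D against the first. Myot differed by -0.97 in the former (unadjusted p = 4.49e-05) and by -0.70 in the latter (unadjusted p = 0.000836). Ilk differed by 3.95 and 2.47, Brd1 by 0.54 and 0.42, and Urgcp by -0.22 and -0.59. These 4 genes were chosen for their differences in the same 12 mice, so the values are a description. Over the 22519 probe sets the differences correlated at r = -0.06 across probe sets and 46.8% had the same sign, given as a description, since probe sets are not independent replicates. In these comparisons 33 probe sets (0.147%) were called for Tg R211A and 1 (0.00444%), Ilk, for Tg S343D.

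**Figure D3:**
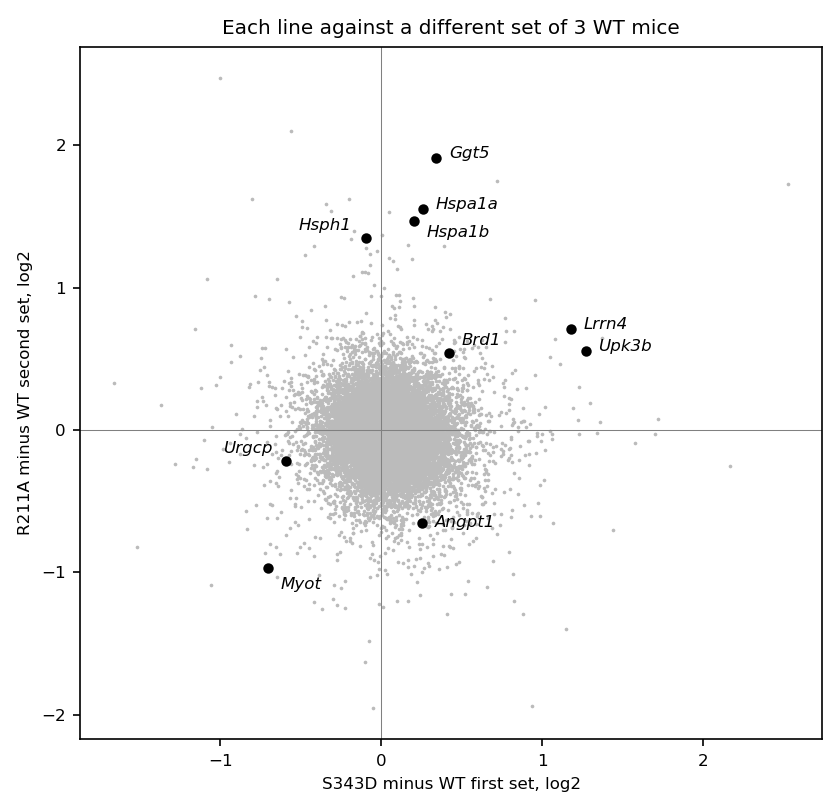
Log2 difference of Tg R211A from the second WT set (vertical) against that of Tg S343D from the first WT set (horizontal) for each probe set tested except that of Ilk, which is off the scale, with 10 genes named. Myot and Urgcp lie at the lower left, Brd1, Lrrn4 and Upk3b at the upper right, the chaperone genes and Ggt5 near the vertical axis, and Angpt1 on opposite sides of 0 in the lines.

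The partners of ILK were examined as a group. Of 12 genes of the ILK, PINCH, parvin and kindlin complex 11 were measured and Ilk was called. Of the 11, 9 were above 0 (81.8%, against 49.5% of all genes tested), with a median of 0.07 against -0.0011 over all genes. The 11 include the over-expressed Ilk itself, so this share is not that of its partners alone. Parva, the alpha-parvin that binds ILK in heart muscle, had signals of 268, 302 and 266 in Tg R211A and 239, 268 and 259.7 in Tg S343D hearts, against 197 to 257 in WT hearts. The ranges overlapped. Its log2 difference was 0.21 ± 0.07 (unadjusted p = 0.0121, not called). Rsu1, which binds PINCH, gave 0.14, the PINCH genes Lims1 and Lims2 gave 0.04 and 0.13, and the kindlin gene Fermt2 gave -0.03. Parvb, beta-parvin, was 0.17 in Tg R211A and -0.13 in Tg S343D. A rise of ILK signal by 3.21 was thus not met by a called difference in any measured partner.

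Myot stood apart within its own structure. Of 33 genes of the Z-disc and of titin's partners, 30 were measured, 1 was called, 2 had an unadjusted p under 0.05 and were lower and 1 had one and was higher. Over all genes tested, 2.55% had such a p and were lower and 2.34% had one and were higher. Only 3 of the 30 were above 0 (10%, against 49.5% of all genes tested), but the median was -0.07. Alpha-actinin (Actn2) differed by -0.02, titin (Ttn) by -0.02, telethonin (Tcap) by -0.08 and desmin (Des) by -0.08, none of which was called. Cavin4, a caveolar protein of muscle, gave -0.22 (unadjusted p = 0.0119), with 850, 919 and 937 in Tg R211A, 863, 1015 and 1006 in Tg S343D and 940.3 to 1280 in WT hearts. Its groups overlapped. Fbxo32, a muscle ubiquitin ligase, gave 0.24 (unadjusted p = 0.047). Beside these, 22 measured genes of the thick and thin filaments had a median of -0.03, with none at an unadjusted p under 0.05. The 10 cardiomyocyte markers had a pooled median of -0.05, with none above 0. Their median was -0.0102 in Tg R211A and -0.0818 in Tg S343D. With no WT mouse in common it was 0.000207 for Tg R211A against the second WT set and -0.0919 for Tg S343D against the first. In whole tissue, fewer cells of a type and less RNA per cell cannot be told apart.

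Markers of the mesothelium, the epithelial lining of the heart's surface, had a median of 0.32, the highest of the lists with at least 3 measured genes. It ran from 0.249, without Tg S343D replicate 2, to 0.48, without Tg S343D replicate 3, when each mouse was left out in turn. Of 10 genes 7 were measured, all 7 were above 0, 4 had an unadjusted p under 0.05 and none was called. Over all genes tested, 49.5% were above 0 and 2.34% had such a p and were higher. Upk3b, a uroplakin, had signals of 224, 173 and 99.7 in Tg R211A and 283, 309 and 141 in Tg S343D hearts, against 63.3 to 169.7 in WT hearts. The ranges overlapped, and the highest values were those of Tg S343D replicates 1 and 2. Upk3b differed by 0.91 ± 0.29 (0.63 in Tg R211A and 1.19 in Tg S343D) and Lrrn4 by 0.95 ± 0.27 (0.59 and 1.31). The summed signal of the 7 was 690, 574 and 498 in Tg R211A, 901, 1009 and 484 in Tg S343D and 344 to 647 in WT hearts. The summed atrial signal of the same hearts was 21042, 3339 and 4900 in Tg R211A and 12913, 21998 and 2810 in Tg S343D, and WT hearts ran from 3379 to 16853. The hearts with the most atrial signal in each transgenic line also had the most mesothelial signal. The same held in both WT sets, for first set replicate 2 (atrial 13617, mesothelial 647) and second set replicate 1 (16853 and 540). A fit with atrial marker level as a covariate is given with the alternatives below. Which part of the tissue was taken from each heart was not tested.

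**Figure D4:**
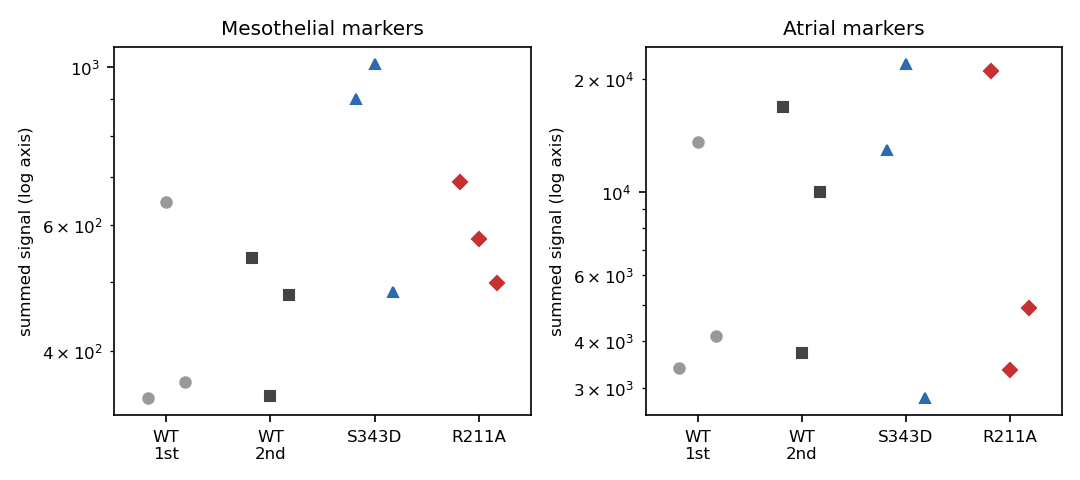
Summed signal of 7 mesothelial markers (left) and 8 atrial markers (right) in each of the 12 mice, on log axes. Mesothelial sums run from 344 to 1009 and overlap between groups, and atrial sums run from 2810 to 21998 within and across all groups.

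Of 33 measured genes of the extracellular matrix, 28 were above 0 (84.8%) and 3 had an unadjusted p under 0.05, all higher (9.09%). Over all genes tested these shares were 49.5% and 2.34%. No matrix gene was called, and the matrix median was 0.10. That median was 0.00573 against the first WT set alone and 0.167 against the second, and it ran from 0.0596, without replicate 2 of the second WT set, to 0.121 when each mouse was left out in turn. The 3 were P4ha1, a collagen prolyl hydroxylase (0.28), Serpinh1, the collagen chaperone HSP47 (0.17) and Timp2, a metalloproteinase inhibitor (0.15). P4ha1 and Serpinh1 had differences of 0.63 and 0.36 in Tg R211A and of -0.07 and -0.02 in Tg S343D, whereas Timp2 had 0.13 and 0.17. The fibrillar collagen genes Col1a1, Col1a2 and Col3a1 gave 0.10, 0.12 and 0.14. Of 10 fibroblast markers 9 were above 0 (90%, against 49.5% of all genes tested). Their median was 0.11, with none at an unadjusted p under 0.05. With no WT mouse in common, the matrix and fibroblast medians were 0.15 and 0.16 for Tg R211A against the second WT set, and 0.0075 and 0.04 for Tg S343D against the first. Natriuretic peptide genes, which rise in strained heart muscle, were near 0 in the pooled comparison, with -0.02 for Nppa and -0.01 for Nppb, and Nppa ranged from 1570 to 8018 among transgenic hearts. Of 31 genes of oxidative phosphorylation 4 were above 0 in the pooled comparison (12.9%, against 49.5% of all genes tested), with a median of -0.02. The lines did not share this direction, as the median was 0.0129 in Tg R211A and -0.0677 in Tg S343D.

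In the remaining lists no gene was called, and few members had an unadjusted p under 0.05. Such a p was found on the higher side for 2.34% and on the lower side for 2.55% of all genes tested. Members with one are given as values. Those with like values in both lines, again given with Tg R211A before Tg S343D, were Tek, the angiopoietin receptor Tie2 (0.18 pooled, 0.13 and 0.24), Psmc4, an ATPase of the proteasome (0.21, 0.20 and 0.22), Cul3, a ubiquitin ligase scaffold (-0.16, -0.13 and -0.20), Casq1, a calcium-binding protein of the sarcoplasmic reticulum (0.30, 0.36 and 0.24) and Cd163, a scavenger receptor of macrophages (0.29, 0.19 and 0.38). These 5 came from lists of 10 to 26 measured genes. Members with most of the difference in Tg R211A were Akt1s1, an mTORC1 subunit (0.22, 0.50 and -0.05), the glutathione synthesis gene Gclm (0.43, 0.68 and 0.19), the glucose transporter gene Slc2a1 (0.27, 0.46 and 0.09), filamin C (Flnc; 0.24, 0.45 and 0.03) and Trdn, triadin of the calcium release unit (-0.17, -0.32 and -0.02). Members with most of it in Tg S343D were Txnip, an inhibitor of thioredoxin (0.57, 0.21 and 0.93), Nfatc4, a target of calcineurin (0.49, 0.28 and 0.69) and Ctnna3, alpha-T-catenin of the intercalated disc (-0.29, -0.06 and -0.51). Of 28 measured genes of endoplasmic reticulum stress, Herpud1 had such a p and was higher (0.24, 0.49 and -0.01), Atf6 (-0.25, -0.45 and -0.06) and Canx, the chaperone calnexin (-0.12, -0.16 and -0.09), had one and were lower, and the median was -0.04. The hexokinase gene Hk2, of the glucose list, was also lower (-0.12, -0.07 and -0.16). Whether the lines differed for these single genes is not read from such values. Akt, GSK3 and mTOR signalling lies downstream of ILK in many cells. Of its 25 measured genes, Akt1s1 was the only one with an unadjusted p under 0.05 (4%, close to the share over all genes), and the median was -0.02.

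**Figure D5:**
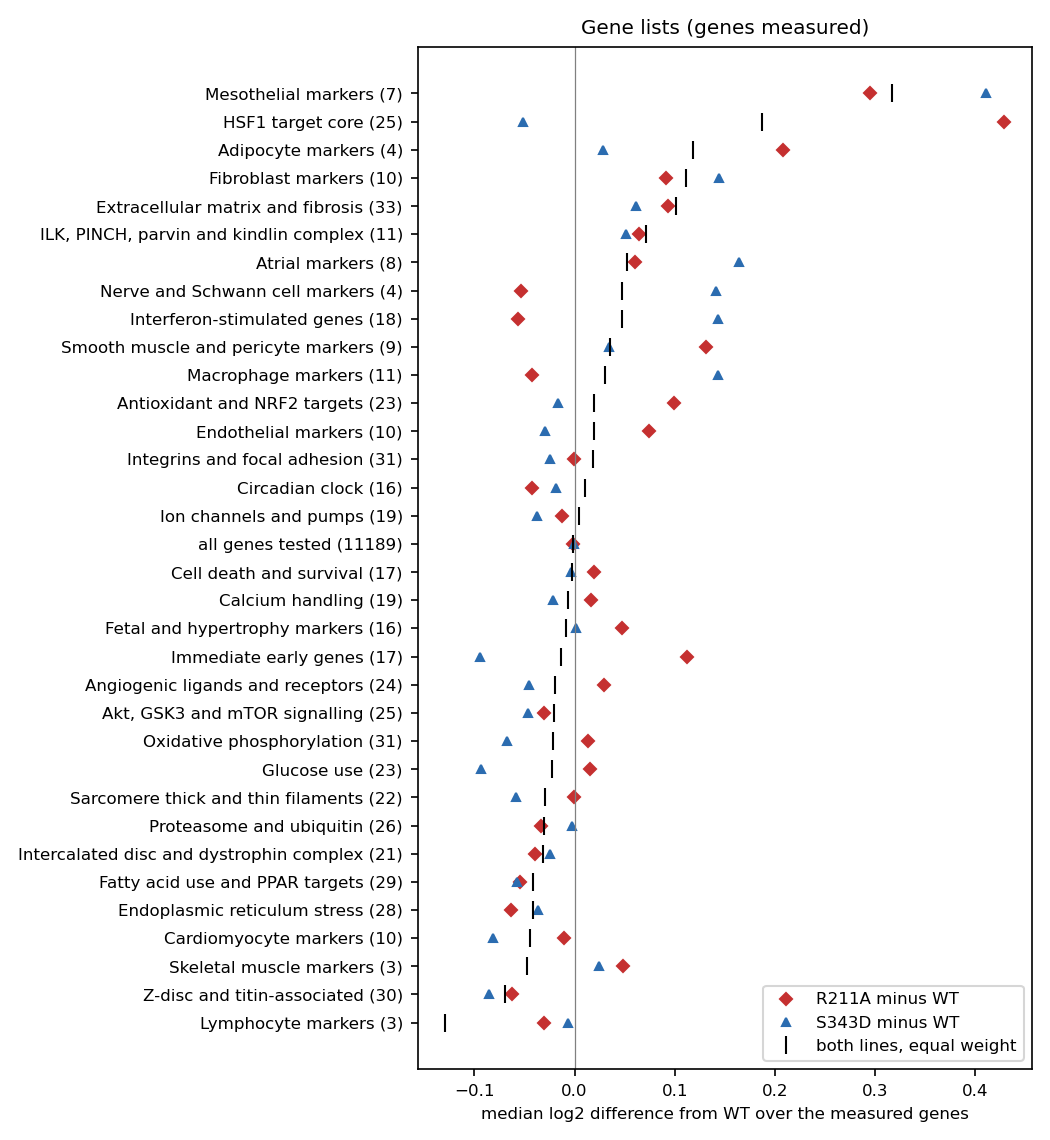
Median log2 difference from WT over the measured genes of each list with at least 3 of them (number in parentheses), for each line (points) and for both at equal weight (ticks), with all genes tested for comparison. The mesothelial, fibroblast and matrix lists are above 0 in both lines against the same 6 WT mice, the Z-disc list is below 0 in both, and the HSF1 target core is 0.43 in Tg R211A and -0.05 in Tg S343D.

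Equal weighting also hid genes on which the lines went opposite ways. Angpt1, the ligand of the endothelial receptor Tie2, had signals of 408, 339.7 and 316 in Tg R211A and 838, 809 and 701 in Tg S343D hearts, against 493 to 742 in WT hearts. The Tg R211A hearts were all below the WT range, and 2 of the 3 Tg S343D hearts were above it. The pooled difference was -0.20 (unadjusted p = 0.0503), from -0.77 in Tg R211A and 0.38 in Tg S343D, and the lines differed by -1.15 (adjusted p = 0.00205). Angpt1 was not called in Tg S343D on its own. Myh7, the slow myosin heavy chain, gave 0.25 pooled, 0.96 in Tg R211A and -0.46 in Tg S343D, but the WT sets themselves differed by -1.09 (first minus second, unadjusted p = 0.000454). Such a p between the WT sets was found for 1800 probe sets (7.99%), and 2 were called (0.00888%). Against the second set alone Tg R211A differed by 0.41, and against the first set alone Tg S343D differed by 0.09. The lines and the WT sets of the same ranges of heart numbers thus differed in the same direction for Myh7.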

How the data were processed

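RNA from 12 mouse hearts was hybridized by the authors to Affymetrix Mouse 430 2.0 arrays, 1 per mouse. The deposited table gives a linear intensity per probe set, computed by the authors with MAS5 (GCOS in the methods; version and detection calls not given in the sources used here) and scaled on each array to a mean of 150.0 without the lowest and highest 2%. The number of arrays limits the precision. Whether the mice of a group share a litter is not given. The p-values set a difference against the spread between mice within a group, so they cannot separate genotype from litter. Between the lines they also cannot separate genotype from the range of heart numbers.

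The 64 array controls were left out of 45101 features. Signals were taken to log2 with nothing added, and the 22519 probe sets whose log2 signal averaged at least 5.44 (a signal of 43.5) were tested with limma 3.58.1 in R 4.3.3 (3 genotype groups, empirical Bayes with a trend, contrast of the mean of both lines against WT, two-sided, Benjamini-Hochberg adjusted). A change was called at an adjusted p under 0.05. Of 45037 probe sets 34945 name 1 gene in the platform's table, 932 several and 9160 none. For lists, the brightest probe set stood for its gene, and single probe sets are named where they led. Symbols, chromosomes and promoters came from RefSeq (GRCm38.p6). The files name no build. Exact permutation tests compared single genes over samples.

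The named genes were Ilk, Myot, the measured ILK complex, the 10 probe sets with the smallest p in each direction with the same sign in both lines, up to 3 genes with the smallest p of each of 35 lists, and Hspa1a, Hspa1b, Hsph1, Hsp90aa1, Nppa, Nppb, Myh7, Acta1, Angpt1 and sex-linked genes. Genes past an unadjusted p of 0.05 in each line, and other list members given as values, were named after their values were seen. The comparison, its members and the lists were chosen with earlier results of these data known. The procedure was tested on simulated data. Alternatives covered scaling, an offset of 16, filters, the prior variance, array weights, groups, blocks, each WT set, each mouse left out, the probe set, the test, and, added after the data were seen, atrial marker level as a covariate. Plots used Python 3.11.15 and matplotlib 3.10.9.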

Additional observations from a re-analysis of the deposited data

Results flagged for a closer look

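Over all 22519 probe sets tested, 36 were called between the lines (0.16%; limma, Tg R211A minus Tg S343D, Benjamini-Hochberg adjusted p). Of the 53 probe sets checked here, 12 were called. These were Ilk (adjusted p = 1.12e-05), Angpt1 (0.00205), Ggt5 (0.0031), Hsph1 (0.0163), Hspa1a (0.0217), both probe sets of Hsp90aa1 (0.0217 and 0.0331), Unc45b (0.024), Rgs5 (0.024), Uap1 (0.0249), Hspa1b (0.0257) and Stip1 (0.0431). Each of them had the larger size of difference in Tg R211A. Many of the 53 were chosen for a small pooled p in the same 12 mice, and most leading probe sets of that ranking had the larger difference in Tg R211A. The count of 12 partly follows from that choice and is given as a description.

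In 2 probe sets 1 WT heart stood apart from the other 5, as the gap to its neighbour over the whole range exceeded Dixon's 95% critical value for 6 samples. For Apoe this was the highest WT heart, second set replicate 1 (ratio 0.801, signal 1182). For the more strongly hybridizing Hsp90aa1 probe set it was second set replicate 3 (ratio 0.681, signal 1695). Chance flags about 1 in 20 groups.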

How the results depend on the processing

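Ilk was called under every alternative run, and no reported pooled difference of Ilk, Myot or Ggt5 reversed. Myot was no longer called without a filter (-0.836, adjusted p = 0.0764), without a variance trend (-0.836, 0.212), with 2 groups (-0.836, 0.295), with the replicate block (-0.836, 0.103), with the first WT set alone (-0.934, 0.24), with the second alone (-0.738, 0.409) and with the methods' t-test after Benjamini-Hochberg (-0.836, 1). Ggt5 was no longer called without a trend (1.13, 0.0689), with 2 groups (1.13, 1), with the first (1.16, 0.24) or second WT set alone (1.1, 0.208) and with that t-test (1.13, 1), and the median of its probe sets was 0.548. Called probe sets then numbered 1 higher without a trend, with 2 groups, with either WT set alone and with the adjusted t-test, and 0 lower in these and without a filter or with the replicate block, where 1 was shared. The methods' t-test at an unadjusted p under 0.05 gave 424 higher, 496 lower and 109 shared. In Tg S343D alone, not called, that unadjusted p was 0.00407 for Myot and 0.0252 for Ggt5. In Tg R211A alone Myot lost its call with the second WT set alone (adjusted p = 0.0799), and after the adjusted t-test Myot (0.196) and Ggt5 (0.118) did. With the atrial covariate, the mean log2 signal of Myl7, Sln and Myl4, added after the data were seen, 4 were higher, Hsph1 among them, and the mesothelial median was 0.289. The median of the HSF1 target core was 0.136 with the second WT set alone.

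Leaving out each mouse in turn gave 2 to 4 higher, 0 to 3 lower and 1 to 3 shared probe sets, Ilk from 3.16 to 3.23, Myot from -0.928 to -0.757 and Ggt5 from 1.04 to 1.28 (called in all 12). Myot stayed called only without Tg R211A replicate 2 or Tg S343D replicate 2. Without Tg R211A replicate 1 Hsp90aa1 was also called, without Tg R211A replicate 2 Klhdc3 and Tfb2m, and without Tg S343D replicate 3 Hspa1b. Over all groups together, same-numbered mice correlated at -0.205 to 0.209 over 18 pairs, and 4 of 12 mice correlated best with their own number. Within a range of heart numbers, however, every same-numbered pair of a WT and a transgenic mouse correlated above 0, from 0.0709 to 0.209. Pairs of a WT and a transgenic mouse with unlike numbers in the same range ran from -0.161 to 0.00161. Pairing within a range and the causes of these results were not tested.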
